A study of Caenorhabditis elegans with 2 samples.

Results

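The genes described here encode proteins of the Caenorhabditis elegans oocyte surface and eggshell. They were taken by name from the deposited table of poly(A) tail lengths as cbd-1, perm-2, perm-4, egg-1, egg-2, egg-3, egg-4, egg-5, chs-1 and rme-2. Of these 10 names, 9 had a row among the 13601 listed genes. The remaining gene, perm-4, is not analysed here. The table lists genes from 10 tags upward. The animals were wild type N2, whole, untreated and fed OP50 bacteria at 25 °C until mid-L4, the last larval stage, at 29 h. The labels give 2 biological replicates of this 1 group, and the table pools them, so no value below has a replicate error and no test was made. In mTAIL-seq each tag reads the 3′ end of an RNA and gives the length of its poly(A) tail, called between 5 and 231 nt.

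The eggshell of C. elegans is built in layers around the fertilized oocyte. The outermost, the vitelline layer, is laid down on the oocyte and contains CBD-1, PERM-2 and PERM-4. Beneath it lies a chitin layer made at fertilization by the chitin synthase CHS-1, then a layer of chondroitin proteoglycans and a lipid-rich permeability barrier. EGG-1 and EGG-2 are membrane proteins of the oocyte with LDL-receptor repeats and are needed for sperm entry. EGG-3, EGG-4 and EGG-5 are phosphatase-like proteins of the oocyte cortex that regulate the kinase MBK-2. RME-2 is the receptor through which oocytes take up yolk. Messages of oocytes are often stored with short poly(A) tails until their proteins are needed, and the gonad of mid-L4 hermaphrodites produces sperm before it produces oocytes.

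The pooled table held 17376490 tags, and listed genes ranged from 10 to 322583 tags with a median of 193. The 9 members together held 1088 tags, or 62.6 of every 1000000 tags, from 20 tags for perm-2 to 275 for cbd-1. The 28 listed major sperm protein genes held 706 of every 1000000 tags, the 3 listed vitellogenin genes 25.4, and the oocyte regulators oma-1, oma-2, puf-5 and lin-41 together 30.2. The 2 sperm genes spe-9 and spe-41 together held 8.75, fewer than these 4 oocyte regulators, but the sets differ in size. Singly, spe-9 (82 tags) and spe-41 (70 tags) lay between puf-5 (60 tags) and oma-1 (249 tags). Germline markers (glh-1, pgl-1, him-3, syp-1, htp-3 and rec-8) held 427. In whole animals, fewer oocytes and less RNA per oocyte cannot be told apart. The 5 members with at least 100 tags were cbd-1, egg-4, rme-2, chs-1 and egg-1; egg-5, egg-3, egg-2 and perm-2 had fewer. Ranks below are among the 8803 genes with at least 100 tags, and a member with fewer tags than these genes can reach an extreme rank by counting error more easily than they can.

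The median tail lay below the median over genes, 80 nt, in 7 of the 9 listed members and above it in 2, chs-1 and perm-2. Their medians ran from 36 nt for cbd-1 to 94 nt for perm-2, and the middle value of the 9 was 58.5 nt. A gene was counted as below or above where the exact 95% binomial interval of its median lay wholly on that side. Among the 5 members with at least 100 tags, cbd-1, egg-4 and rme-2 were below, egg-1 and chs-1 had intervals that included 80 nt, and 0 were above. Across the 8803 genes 36.7% were below and 35% above. In the 3454 genes with 100 to 299 tags, the range of tag numbers in which these members fall, 21.5% were below. Of all 9 listed members 4 were below, with egg-3 as the further gene, and 0 were above, against 27.8% below and 30.8% above among all listed genes. Such intervals measure counting error alone and would be too narrow if the tags include PCR copies.

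**Figure D1:**
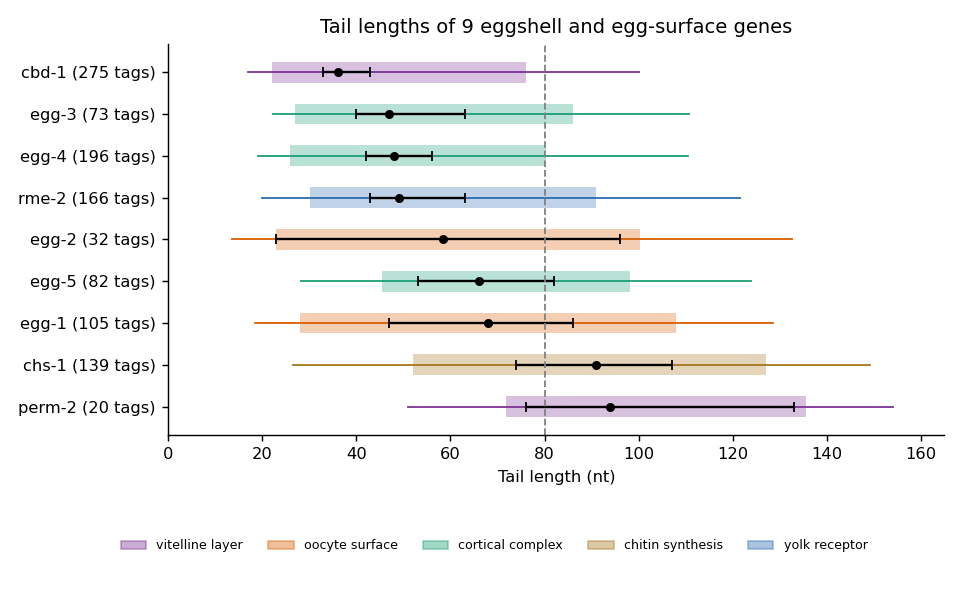
Tail lengths in nt (x axis) of the 9 listed members (y axis, with tag numbers). Points are medians with exact 95% intervals, shaded bars span the quartiles, thin lines the lower to the upper decile, and the dashed line is the median over genes, 80 nt; the medians run from 36 nt (cbd-1) to 94 nt (perm-2).

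The vitelline layer genes marked both ends of the range. cbd-1, which encodes a chitin-binding protein, had the most tags and the shortest tails of the members. Its 275 tails ran from 5 to 231 nt around a median of 36 nt (95% interval 33 to 43 nt), 44 nt under the median over genes. Only 15 of the 8803 genes had a shorter median, and 10 of the 3454 genes with 100 to 299 tags. Its rank among genes was at percentile 0.210 by the median, 1.21 by the mean and 1.58 by the median without tails under 20 nt. Its lower quartile was 22 nt and its upper quartile 76 nt. Of its tails 91 lay between 15 and 29 nt and 52 between 30 and 44 nt, and the commonest single length, 20 nt, occurred 15 times. A smaller number of cbd-1 tails were of ordinary length, with 24 between 75 and 89 nt and as many between 90 and 104 nt. perm-2, whose product works with CBD-1 in the same layer, had tails from 36 to 170 nt and a median of 94 nt (76 to 133 nt). This value rests on 20 tags, and its interval included 80 nt. The intervals of cbd-1 and perm-2 did not overlap, and in 83% of all pairs of 1 tag from each gene the perm-2 tail was the longer. No perm-2 tail was under 30 nt. With 3 tags as the limit that a count of 0 allows, 0 of 20 tags allows a share of up to 15%, and the upper Wilson bound was 16.1%.

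The sperm-entry genes egg-1 and egg-2 had many very short tails without a clear lack of long ones. Tails over 100 nt made up 32.4% of egg-1 tags and 25% of egg-2 tags. Both Wilson intervals included 31.8%, the median over genes. egg-1 had 105 tails between 8 and 175 nt, with a median of 68 nt (47 to 86 nt). Its lower quartile was 28 nt, against 53 nt as the median over genes of that quartile. Its upper quartile was 108 nt, against 109 nt. Of its tails 25 lay between 15 and 29 nt, and each of the equally wide steps from 30 to 119 nt held between 6 and 11. egg-2 had 32 tails between 10 and 231 nt, with a median of 58.5 nt (23 to 96 nt), a lower quartile of 23 nt and an upper quartile of 100 nt. With so few tags this median is poorly fixed, and its interval overlapped that of every other member. The proteins of this pair are related, so that a division of tags between the genes depends on how reads were assigned, which no source used here states.

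The cortical genes egg-3 and egg-4 lay close together. egg-3 had 73 tails from 12 to 158 nt with a median of 47 nt (40 to 63 nt), and egg-4 had 196 tails from 13 to 231 nt with a median of 48 nt (42 to 56 nt). Of the 8803 genes, 227 had a shorter median than egg-4. In 48.3% of tag pairs the egg-4 tail was the longer of these 2 genes. egg-5, the close paralog of egg-4, had 82 tails from 11 to 199 nt with a median of 66 nt (53 to 82 nt), which included 80 nt. The intervals of egg-4 and egg-5 overlapped, and the egg-5 tail was the longer in 62.4% of tag pairs. The lower quartile was 26 nt for egg-4 and 45.5 nt for egg-5. The sequences of egg-4 and egg-5 are nearly identical, so their separate values are uncertain.

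The chitin synthase gene chs-1 had longer tails than egg-3, whose product is needed to place CHS-1 correctly at the cortex. There were 139 chs-1 tails from 12 to 231 nt, with a median of 91 nt (74 to 107 nt), longer than that of 6503 of the 8803 genes, though its interval included 80 nt. Tails over 100 nt made up 45.3% of its tags (95% Wilson interval 37.3 to 53.6%), against 31.8% as the median over genes. Its interval of the median lay wholly above those of cbd-1, egg-3, egg-4 and rme-2.

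The yolk receptor gene rme-2 resembled egg-3 and egg-4. Its 166 tails ran from 10 to 229 nt with a median of 49 nt (43 to 63 nt), and 253 of the 8803 genes had a shorter median. Its lower quartile was 30.3 nt and its upper quartile 91 nt. The rme-2 tail was the longer in 53.4% of tag pairs with egg-4 and in 59.8% of pairs with cbd-1.

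In order of median, the members were cbd-1, egg-3, egg-4, rme-2, egg-2, egg-5, egg-1, chs-1 and perm-2. No pair of neighbours in this order had separate intervals. Of the 36 pairs of members 10 had separate intervals. These were cbd-1 against egg-5, egg-1, chs-1 and perm-2, and each of egg-3, egg-4 and rme-2 against chs-1 and perm-2. The 4 pairs with perm-2 rest on its 20 tags. No share over pairs of all genes stands beside this count, so whether it is unusual was not tested.

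The short medians came with a large share of very short tails. Tails under 30 nt made up 6.34% of tags as the median over genes, with quartiles over genes of 4.17% and 9.14%. They made up 38.2% of cbd-1 tags (95% Wilson interval 32.6 to 44.0%), and 6 of the 8803 genes had a higher share. The share was 29.6% for egg-4 (23.6 to 36.3%), 27.6% for egg-1 (19.97 to 36.8%) and 23.5% for rme-2 (17.7 to 30.5%). These values lay several times above the median over genes. chs-1 had 12.2% (7.78 to 18.7%), the lowest share among the members with at least 100 tags and still above 6.34%.

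Among members with fewer tags, egg-2 had 34.4% of tails under 30 nt (20.4 to 51.7%), egg-3 28.8% (19.7 to 40.0%) and egg-5 10.98% (5.88 to 19.6%). The Wilson interval lay wholly above 6.34% in 5 of the 5 members with at least 100 tags and in 7 of the 9 listed. The same held for 28.8% of the 8803 genes, for 19.9% of genes with 100 to 299 tags and for 22.7% of all listed genes. A share of 20% or more, a limit set after the values were seen, was reached by 4 of the 5 members and by 1.59% of the 8803 genes. It was reached by 2.08% of genes with 100 to 299 tags. Over all listed genes it was reached by 6 of the 9 members and by 2.82% of genes.

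**Figure D2:**
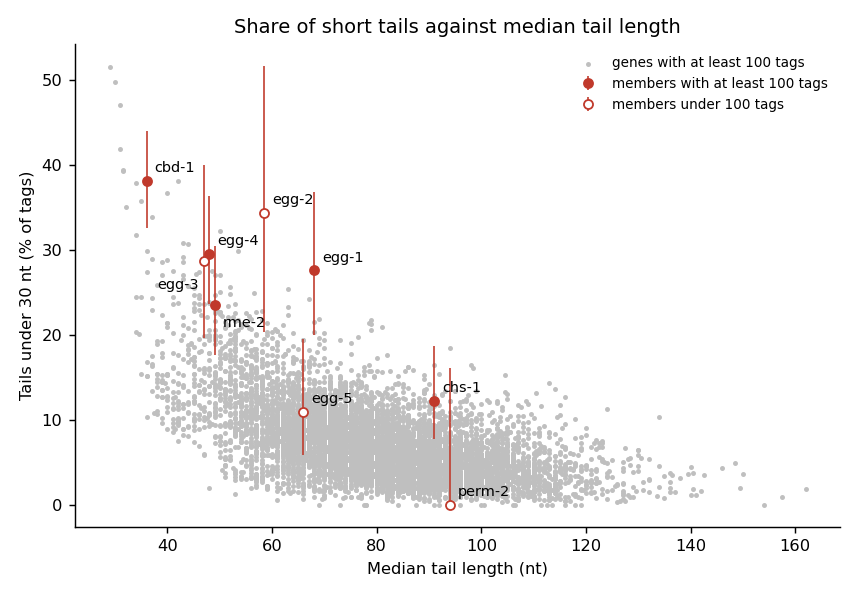
Share of tails under 30 nt in % of tags (y axis) against median tail length in nt (x axis). Grey points are the 8803 genes with at least 100 tags, red points the members with 95% Wilson intervals, open where a member has under 100 tags; egg-1 lies above the grey points at its median, with 27.6% of its tails under 30 nt.

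Genes with shorter medians have more tails under 30 nt, so each member was set beside the other genes whose median lay within 5 nt of its own. For egg-1 there were 1752 such genes, with a middle value of 7.92% of tails under 30 nt, and 0 of them exceeded its share. For egg-4 the middle value was 13.97%, and 3 of 369 genes had a higher share. For rme-2 it was 13.5%, with 25 of 410 genes higher, for cbd-1 15.4%, with 4 of 89 higher, and for chs-1 4.86%, with 28 of 1802 higher. Among the members under 100 tags, 6 of 327 such genes exceeded egg-3 and 0 of 905 exceeded egg-2. egg-5 did not share a high position among genes of like median, and 20 tags cannot place perm-2. For egg-5 the middle value was 8.31%, and 344 of 1571 genes had a higher share. For perm-2 it was 4.82%, and 1530 of 1534 genes had a higher share than its 0 of 20 tags.

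At the long end the members were less unusual. Tails over 100 nt made up 9.82% of cbd-1 tags (6.84 to 13.9%), 13.3% of egg-4 tags, 17.8% of egg-3 tags and 18.1% of rme-2 tags, and their Wilson intervals lay wholly below 31.8%. These 4 of the 9 members compare with 29.5% of all listed genes. egg-1 had 32.4% of tails over 100 nt (24.2 to 41.8%). The interval of chs-1 alone lay wholly above 31.8%, as it did in 34.6% of all listed genes.

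The ranks of the quantiles showed the same difference between the short and the long end. The lower quartile of egg-1 stood at percentile 0.250 of genes and its upper quartile at percentile 47.7. For rme-2 these percentiles were 0.812 and 17.1, for egg-4 0.119 and 6.63, and for cbd-1 0.0454 and 4.49. In chs-1 the lower decile stood at percentile 6.37 and the upper quartile at 82.7. The distributions were correspondingly wide for their means. The SD over the mean, 0.476 as the median over genes, was higher than that in 8 of the 9 members. It was 0.707 for cbd-1, 0.660 for egg-4, 0.629 for rme-2, 0.626 for egg-1 and 0.515 for chs-1. The exception was perm-2 at 0.397, on 20 tags.

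**Figure D3:**
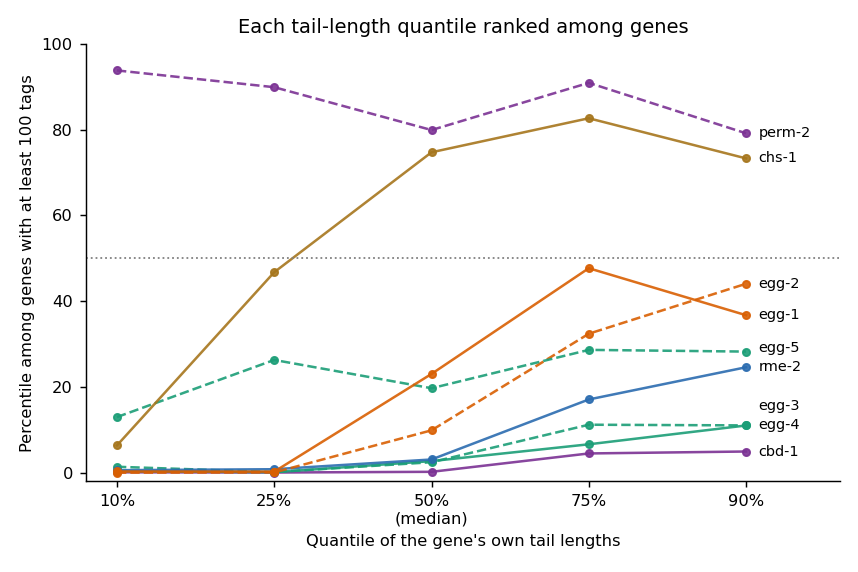
Percentile among the 8803 genes with at least 100 tags (y axis) of each quantile of a gene's own tail lengths (x axis), 1 line per member in the colour of its role as in the plot of tail lengths, dashed under 100 tags. The lines of egg-1 and rme-2 start near 0; that of egg-1 reaches percentile 47.7 at the upper quartile and 36.7 at the upper decile, that of rme-2 percentile 17.1 and 24.6.

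With tails under 30 nt left out, an alternative added after the values were seen, the medians of cbd-1, egg-4 and rme-2 were 61, 64.5 and 67 nt, against 83.5 nt over genes. Their intervals, 54 to 71, 56 to 76 and 56 to 82 nt, stayed below 83.5 nt. The median of egg-1 became 89 nt (75 to 105 nt), above that over genes but with an interval that included it, on 76 tags. That of chs-1 became 103 nt (86 to 114 nt), wholly above. Among the tails of 30 nt or more, cbd-1, egg-4 and rme-2 thus had short medians too, at percentiles 7.203, 10.7 and 13.9 of genes, and egg-1 stood at percentile 63.8.

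**Figure D4:**
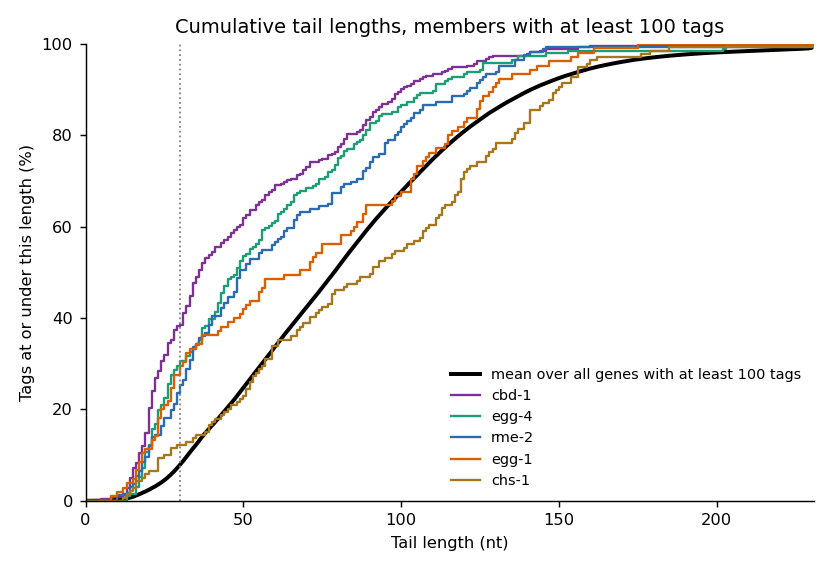
Cumulative share of tags in % (y axis) at or under each tail length in nt (x axis) for the 5 members with at least 100 tags and, in black, the mean over the 8803 genes. The dotted line marks 30 nt; the curves of cbd-1, egg-4, rme-2 and egg-1 rise early, and that of egg-1 meets the black curve near 100 nt.

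Other genes of the same pathways, fixed as lists by name, had middle values of 68 to 89 nt. In whole animals, the tags of these genes need not come from oocytes. In these lists 29 of 80 genes with at least 100 tags were below 80 nt, against 36.7% of the 8803 genes. Of the 8803 genes 35% were above, and 1.59% had 20% or more of tails under 30 nt. The members with at least 100 tags had a middle value of 49 nt, on 5 genes. In the list of enzymes for chitin and its amino-sugar precursor, 5 genes had at least 100 tags, with a middle value of 68 nt; 3 were below 80 nt and 0 above. These were gfat-1 and gfat-2, which encode the aminotransferases that open the pathway, at 67.5 nt (65 to 70 nt) and 63 nt (54 to 72 nt), and C36A4.4, a UDP-N-acetylglucosamine pyrophosphorylase gene, at 68 nt. The mutase gene pgm-3 had the longest median, 82 nt. In gfat-2 22.4% of tails were under 30 nt. The related chitin synthase gene chs-2, named after its values were seen, had 72 tags and a median of 107 nt.

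The list of the inner eggshell and the permeability barrier had a middle value of 89 nt over 17 genes, with 4 below and 10 above. Over the 8803 genes 36.7% were below and 35% above. The proteoglycan gene cpg-1 was the shortest, at 43 nt (40 to 46 nt) on 325 tags, with 28.6% of tails under 30 nt. Its partner cpg-2, named after its values were seen, had a median of 44 nt (38 to 51 nt) on 394 tags and 30.7% of tails under 30 nt. cpg-1 and cpg-2 were the 2 genes of this list with at least 100 tags and 20% or more of such tails. Over the 8803 genes 1.59% reached this share. The lipid synthesis genes pod-2 and fasn-1, which are also used outside the germ line, had medians of 91 and 100 nt, and the chondroitin synthase gene sqv-5 the longest, 106 nt.

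Regulators of the oocyte-to-embryo transition had a middle value of 80.8 nt over 16 genes, with 6 below and 6 above. Of them 0 had 20% or more of tails under 30 nt. These counts lay near the shares over the 8803 genes, 36.7% below, 35% above and 1.59% with such a share. The kinase gene cdk-1 was at 65 nt and the cyclin B gene cyb-1 at 88 nt. Subunit genes of the anaphase-promoting complex marked the range, apc-11 at 53 nt and emb-30 at 97 nt. mbk-2, named here because EGG-3, EGG-4 and EGG-5 bind its kinase, had a median of 73 nt (68 to 79 nt) and 14.9% of tails under 30 nt.

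The list of yolk proteins and endocytosis had a middle value of 89 nt over 19 genes, with 3 below and 12 above. The shares over the 8803 genes were 36.7% below and 35% above. The trafficking genes rab-11.1 and chc-1, the latter encoding clathrin heavy chain, were at 83 and 90.5 nt, and the receptor-related gene lrp-2 was the longest at 106 nt. The shortest, bmk-1 at 71 nt, encodes a kinesin and was placed in this list although it is not known for yolk uptake. The vitellogenin genes vit-1 and vit-2, named after their values were seen, encode the yolk proteins that RME-2 binds. They had medians of 74.5 nt (69 to 78 nt) and 91.5 nt (88 to 96 nt), both with intervals above that of rme-2. Tails under 30 nt made up 1.55% and 0.909% of their tags, and 23.5% of rme-2 tags. Whole animals do not separate the tissues that express these genes.

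Proteins that regulate germline and maternal messages had a middle value of 73 nt over 23 genes, with 13 below and 8 above. Among the 8803 genes 36.7% were below and 35% above. The helicase gene cgh-1 was at 70 nt with 19.4% of tails under 30 nt, and car-1 at 75 nt with 6.30%. The shortest, oma-2, which encodes a zinc-finger protein of oocytes, was at 51.5 nt (45 to 62 nt). The longest, cpb-1, which encodes a cytoplasmic polyadenylation element-binding protein needed for sperm formation, was at 127 nt (117 to 137 nt). In cpb-1 0.690% of tails were under 30 nt. Of the list of sperm surface and fertilization genes 12 were listed, and 0 had at least 100 tags.

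**Figure D5:**
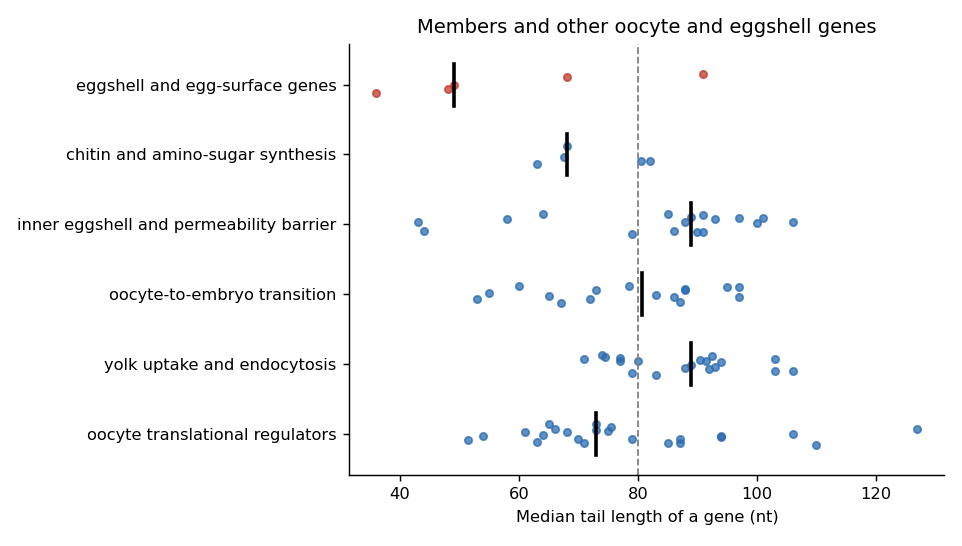
Median tail length in nt (x axis) of each gene with at least 100 tags, for the members (red) and the 5 name lists that hold such genes (blue); points are spread vertically for visibility. Black bars mark the middle value of each group, 49 nt for the members, and the dashed line the median over genes, 80 nt.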

How the data were processed

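Poly(A) tails were measured in 2 biological replicates of 1 group. Per the labels' protocols, a splint oligonucleotide favoured polyadenylated RNA in adapter ligation, RNA was cut partially with RNase T1, fragments of 250 to 1000 nt were selected, and tailseeker2 called tail lengths from MiSeq signals. STAR and bedtools are named in the submitters' processing notes, without versions. The genome build, annotation and read assignment are not stated there, so no coordinates are printed. The deposited counts are tags per gene, not normalized; depth per replicate is unknown. Each gene's deposited list of tail lengths, in nt, was used; its count, mean, median and SD recomputed from the list differed in 0 genes. Members were matched on the table's alias.

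Medians carry exact binomial order-statistic intervals, shares Wilson intervals, both 95% and for counting error only; the routines were tested on simulated data. Genes with at least 100 tags served as reference. Python 3.11.15, numpy 2.4.6, scipy 1.17.1 and pandas 2.3.3 were used. The members and lists were chosen with earlier results of these data known. Genes named are the members and, per list, the 2 with the most tags, the shortest and the longest median among those with at least 100 tags; exceptions are marked. Alternatives were the summary, the minimum of tags, the centre, the length limits and leaving out capped or short tails.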

Additional observations from a re-analysis of the deposited data

How the results depend on the processing

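The number of the 9 members below the median over genes, 7, was the same with means, with means of log2(tail length + 1), and without capped tails or tails under 20 nt, and was 6 without tails under 30 nt. The number whose interval lay below was 3 of 5 (36.7% of genes). It was 4 of 7 with a minimum of 50 tags (35.6% of genes), 4 of 9 with all listed genes and their own centre of 82 nt (31.6%), 3 of 5 without capped tails (37.7%), and 3 of 4 without tails under 20 nt (36.9%) or under 30 nt (37.8%). Centred on the median over tags, 58 nt, it was 2 of 5 (5.69% of genes). The number above was 0, but 1 (chs-1) when centred on 58 nt, where 84.97% of genes were above, or without tails under 30 nt, where 36% were. Centred on 58 nt, 3 of 80 genes of the name lists were below, against 29. Without the pairs egg-1 with egg-2 and egg-4 with egg-5, 2 of 3 members were below, beside the same 36.7% of genes. With 25% in place of 20% as the limit for very short tails, 3 of 5 members reached it (0.4998% of genes), and 3 also with 25 nt in place of 30 nt (0.148% of genes). A minimum of 400 tags left 0 members to count. The replicates could not be left out in turn, because the table pools them. No paired analysis was possible because there is 1 group. Depth limits egg-2 and perm-2 most, with 32 and 20 tags.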

Other observations

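Of the 23 regulators of germline and maternal messages with at least 100 tags, 2 had 20% or more of tails under 30 nt. Over the 8803 genes 1.59% did, and over all listed genes 2.82%. The middle value of the list was 6.48%, against 6.34% over genes. The genes with high shares were named after their values were seen. puf-3 and puf-11, which encode Pumilio-family proteins, had 40.4% and 36.6% of tails under 30 nt, with medians of 35 nt (95% interval 28 to 54 nt) on 47 tags and 40 nt (32 to 57 nt) on 71 tags. puf-5 had 25.0% on 60 tags and mex-3, a KH-domain protein gene, 22.2% on 90 tags. puf-7 had 20% on 60 tags, with a median of 74.5 nt (46 to 103 nt). Among genes with at least 100 tags, pos-1, a zinc-finger protein gene, had 21.3% and oma-2 21.2%. The share was low in cpb-1 (0.690%), fbf-2 (0.794%) and fog-1 (1.59%). It was also low in gld-3 (3.08%), lin-41 (2.86% on 70 tags) and mex-6 (2.70% on 37 tags). daz-1, the gene of another germline RNA-binding protein, had 5.68% on 229 tags, and oma-1 10.8% on 249 tags.

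The 3 genes with at least 1000 tags whose tail lengths were most like those of cbd-1, by the largest gap between cumulative distributions, were fipr-4 (gap 0.145), col-162 (0.150) and C35B1.5 (0.158). Closest did not mean alike. Their medians were 43, 40 and 43 nt, with 27.1, 28.8 and 29.2% of tails under 30 nt, against 36 nt and 38.2% for cbd-1. By the area between the distributions, 2 of these 3 genes were again among the 3 closest to cbd-1, against 1 each for perm-2 and chs-1 below. For perm-2, on 20 tags, they were frm-1 (0.0834), F17C11.4 (0.0883) and B0395.3 (0.0927). For chs-1, added because perm-2 has few tags, they were ctl-2 (0.0441), dpy-6 (0.0557) and pud-4 (0.0581).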
